A study of Rattus norvegicus with 8 samples.

Results

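Glycolysis splits glucose into pyruvate and lactate, and Pgk1 encodes phosphoglycerate kinase, the enzyme of the first step that yields ATP. Its gene group here was made up of Pgk1 and 7 further genes of the core pathway, namely Hk1, Aldoa, Tpi1, Gapdh, Eno1, Pkm and Ldha. All probe sets listed under a single one of these symbols in the platform annotation were taken, which gave 18 of the 8799 probe sets on the array, for 6 of the 8 genes. Of the 18, 9 are controls of the array, 6 for Gapdh and 3 for Hk1, and the other 9 all passed the filter on dim values. Ldha and Tpi1 had 0 probe sets of their own, because 3 further probe sets with a symbol of the group (1 each for Ldha, Tpi1 and Gapdh) carry several symbols and were not used.

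The group was chosen by the intensities of 1 Pgk1 probe set, rc_AA892797_at, which had been seen to move with genotype in these data. Its genotype values are therefore a description, with no test, and the question asked of the data was whether the rest of the pathway moved with it. Core glycolytic enzymes are made in nearly every cell, and embryonic neural tissue relies strongly on glycolysis. Transcripts of several of them are raised by the hypoxia-inducible factors, which bind the short core sequence ACGTG. Cells can thus raise many steps at once.

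Rat embryos at stage E12.5 were either wild-type or Pax6 homozygous, the latter carrying 2 copies of a Pax6 mutation whose allele the labels do not name. Pax6 is a transcription factor of the developing forebrain, eye and hindbrain. Heads were cut at the isthmus into a forebrain part, which kept midbrain, eye and nose primordia, and a hindbrain part, which kept the pharyngeal arches. Wild-type forebrain, Pax6 homozygous forebrain, wild-type hindbrain and Pax6 homozygous hindbrain were each hybridised to 2 rat U34A arrays, so 8 arrays set the precision of everything that follows. The labels give neither the number of embryos behind an RNA nor whether a group's arrays had separate litters behind them. A p-value here therefore reflects no more than array-to-array spread, which may be technical.

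The dissection was visible in the arrays. Lhx2, a forebrain homeobox gene, lay between 7768 and 8692 on the forebrain arrays and between 1444 and 1801 on the hindbrain arrays. Hoxa5, a gene of the caudal hindbrain and spinal cord, lay between 1955 and 2723 on the hindbrain arrays and rose above noise on none of the forebrain arrays. Hoxb7, a gene of similar domain, was above noise on no array. Of 6 forebrain and midbrain genes tested, 4 passed limma's test as higher in forebrain, as did 0.289% of all probe sets. Pou3f3 of the same genes overlapped, at 4847 to 5911 on forebrain and 4046 to 7205 on hindbrain arrays. Egr2, a hindbrain gene, was above noise on 1 array. Noise was taken as the size of the 5th percentile of an array's intensities and lay between 243 and 620 (619.8). The 3' to 5' intensity ratio of the Gapdh control probe sets, a measure of RNA integrity, lay between 1.14 and 1.27 on all 8 arrays.

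Of the sequences in reach, the promoters of the group show the hypoxia core that several of these genes share. RefSeq promoter windows of assembly GRCr8, from 250 bases before to 50 after a start, were found by symbol for 7 of the 8 genes, all but Pgk1. ACGTG was searched on both strands, where a CACGTG counts as a match on each. It was present in at least 1 window of Ldha, Aldoa, Gapdh, Eno1 and Hk1, 5 of 7 genes, and in 19.3% of all 33469 windows. Genes with several starts have several windows, so the share of genes and the share of windows are not on the same footing. The matching windows of these genes had 62.3% to 69.3% G and C, against a median of 51.7% over all windows. No comparison at like base content was made, so no enrichment can be read from these shares. Gapdh and Eno1 are shown because both were read by more than 1 bright probe set, with the match in capitals:
Gapdh, chr4:159652418-159652717, minus strand: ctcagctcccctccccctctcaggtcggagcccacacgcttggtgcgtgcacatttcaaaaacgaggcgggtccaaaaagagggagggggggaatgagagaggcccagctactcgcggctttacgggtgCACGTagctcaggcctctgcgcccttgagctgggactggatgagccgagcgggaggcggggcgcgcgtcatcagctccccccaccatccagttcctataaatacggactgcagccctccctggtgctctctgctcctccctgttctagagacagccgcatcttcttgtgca
Eno1, chr5:166003111-166003410, plus strand: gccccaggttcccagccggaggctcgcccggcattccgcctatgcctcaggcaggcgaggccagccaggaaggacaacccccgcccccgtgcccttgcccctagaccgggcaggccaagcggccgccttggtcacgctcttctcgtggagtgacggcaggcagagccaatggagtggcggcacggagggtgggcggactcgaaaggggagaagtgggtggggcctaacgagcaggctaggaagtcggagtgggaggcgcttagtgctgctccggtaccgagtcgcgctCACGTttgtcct
Each of these windows held 1 match. A match is a run of letters and no evidence of binding.

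The Pgk1 probe set rc_AA892797_at was brighter in Pax6 homozygous tissue on every array. In forebrain it read 18331 and 10738 in wild-type and 33674 and 32554 in Pax6 homozygous tissue. The hindbrain arrays read 9294 and 9486 in wild-type and 35716 and 32605 in Pax6 homozygous tissue. All 4 Pax6 homozygous arrays thus lay above all 4 wild-type arrays, and the 2 wild-type forebrain arrays stood further apart than those of any other group. On the log2 scale, the genotype difference (here and throughout Pax6 homozygous minus wild-type, ± SE) came to 1.24 ± 0.22 for forebrain, 1.86 ± 0.22 for hindbrain and 1.55 ± 0.16 as the mean of both. Without wild-type forebrain replicate 2 the forebrain difference was 0.85, and without replicate 1 it was 1.62. Among all 5881 probe sets tested, 3.57% had 4 wild-type and 4 Pax6 homozygous arrays that did not overlap, and 2.38% were higher in this way.

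Whether the shift of this probe set differed between regions was not used to choose it. The forebrain difference minus the hindbrain difference was -0.62 ± 0.32 on the log2 scale (95% interval -1.34 to 0.10, limma adjusted p = 0.9995). Forebrain and hindbrain levels, averaged over genotypes, differed by 0.27 ± 0.16 (limma adjusted p = 0.797). Neither difference passed the threshold.

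The other Pgk1 probe sets did not show this step between genotypes. Both are listed under 1 GenBank entry, other than that of rc_AA892797_at. M31788_g_at read 35521 and 36869 on the wild-type and 34000.4 and 36019 on the Pax6 homozygous forebrain arrays, which overlapped. In hindbrain it read 30321 and 31708 on the wild-type and 34807 and 33253 on the Pax6 homozygous arrays, so that there the Pax6 homozygous arrays were the higher ones. In that region alone, 34.4% of all probe sets had 2 and 2 arrays apart in one direction or the other. The log2 difference over both regions was 0.04 ± 0.08 (95% interval -0.14 to 0.23, limma adjusted p = 0.985), with -0.05 ± 0.11 in forebrain and 0.13 ± 0.11 in hindbrain.

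M31788_at was far dimmer. It read 1813 and 1841 on the wild-type and 2021 and 1992 on the Pax6 homozygous forebrain arrays, and 996 and 1786 on the wild-type and 1469 and 1890.1 on the Pax6 homozygous hindbrain arrays. The groups were apart in forebrain, as in 22.8% of all probe sets there, and overlapped in hindbrain, where 1 wild-type array was low. The log2 difference was 0.23 ± 0.23 (95% interval -0.30 to 0.75, limma adjusted p = 0.942). Across the 8 arrays the log2 values of M31788_at and M31788_g_at had a Pearson r of 0.65, and rc_AA892797_at had an r of 0.45 with the former and 0.41 with the latter. These are descriptions over arrays that share their groups.

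**Figure D1:**
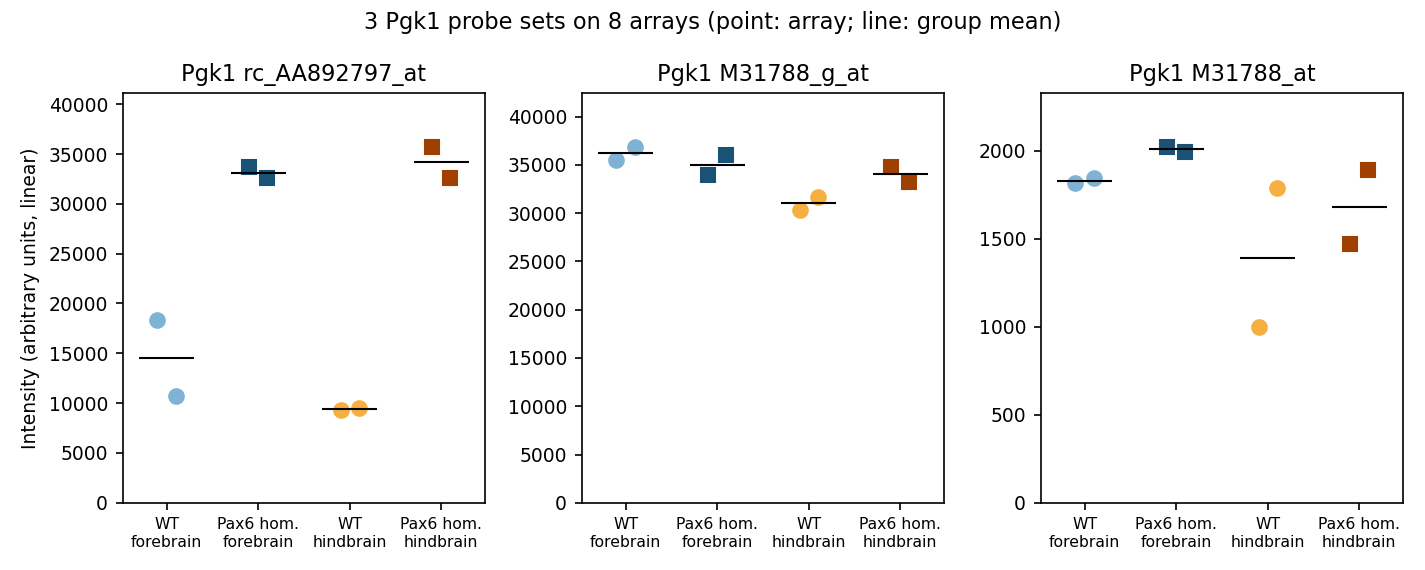
Intensity (linear scale from 0, arbitrary units) of the 3 Pgk1 probe sets on the 8 arrays, a point for each array and a line for each group mean. The 4 Pax6 homozygous points of rc_AA892797_at lie between 32554 and 35716, above all wild-type points, while the groups of the other probe sets lie close together.

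None of the other tested probe sets of the group passed the test for genotype. Of 8, 0 passed limma's test over both regions, where 0.034% of all 5881 probe sets did, and 0 had an unadjusted p under 0.05, which 5.02% of all had. Without the filter, without the intensity trend or with the floor raised to the pooled median, 1 of 8 had such a p. Their log2 differences ran from -0.03 to 0.43 with a median of 0.04, against a median of 0.03 over all probe sets tested. Under quantile normalization these medians were 0.13 and 0.0047, and leaving out 1 array put that of the group between 0.0076 and 0.11. 5 were positive and 3 negative, and 54.3% of all probe sets were positive. The highest upper end among the 8 intervals of 95% was 0.91, that of U27319exon_at of Hk1. In each region alone, 0 of 8 passed (0.017% of all in forebrain and 0.017% in hindbrain). There 0 of 8 had an unadjusted p under 0.05 (2.92% of all in forebrain and 4.49% in hindbrain), and the highest upper end of an interval was 1.06 in forebrain and 1.16 in hindbrain.

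Hk1 encodes hexokinase 1, which traps glucose in the cell at the entry of the pathway. Its probe set U27319exon_at came closest to the pattern of the Pgk1 probe set. It read 1022 and 1045 on the wild-type and 1523 and 1195 on the Pax6 homozygous forebrain arrays, and 1244.5 and 1067 on the wild-type and 1828 and 1422 on the Pax6 homozygous hindbrain arrays. Within each region the Pax6 homozygous arrays were the higher pair, as in 4.56% of all probe sets (7.46% with the lower pairs counted too), but the 4 arrays of each genotype overlapped. The log2 difference was 0.43 ± 0.21 (95% interval -0.05 to 0.91, limma adjusted p = 0.928).

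The brighter Hk1 probe set, rc_AI012593_at, gave another picture. It read 4076 and 3509 on the wild-type and 3742 and 5991.5 on the Pax6 homozygous forebrain arrays, and 6139.5 and 6497.5 on the wild-type and 4393.5 and 5562 on the Pax6 homozygous hindbrain arrays. Both wild-type hindbrain arrays lay above all others. The genotype difference over both regions was -0.01 ± 0.18, with 0.32 ± 0.25 in forebrain and -0.35 ± 0.25 in hindbrain, and the test of the difference between regions gave 0.68 ± 0.36 (limma adjusted p = 0.9995). The log2 values of both Hk1 probe sets had an r of -0.10 over the 8 arrays.

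The 3 Hk1 control probe sets of the array were dim. The 5' set was above noise on 4 of 8 arrays and the 3' set on 6. The middle set was above noise on all 8, at 954 and 478 on the wild-type and 1075 and 1172 on the Pax6 homozygous forebrain arrays, and at 1629 and 1247.5 on the wild-type and 1667.5 and 1418.5 on the Pax6 homozygous hindbrain arrays. With the rat controls kept in the fit, its genotype difference was 0.42 ± 0.27 (limma adjusted p = 0.928). Its forebrain minus hindbrain difference was -0.77 ± 0.27 (95% interval -1.39 to -0.15, limma adjusted p = 0.409), which did not pass.

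Aldoa encodes aldolase A, which cleaves the 6-carbon sugar. Its 1 probe set, rc_AA924326_s_at, read 15067 and 7179.9 on the wild-type and 10593 and 11276 on the Pax6 homozygous forebrain arrays, and 12755 and 7431 on the wild-type and 14713 and 9003 on the Pax6 homozygous hindbrain arrays. The genotypes overlapped in both regions. The genotype difference was 0.16 ± 0.27 (95% interval -0.47 to 0.78, limma adjusted p = 0.985), so a moderate change in either direction was not detectable with these arrays.

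Gapdh, which oxidises glyceraldehyde phosphate just before the Pgk1 step, was read by 3 antisense control probe sets along its transcript. Their lowest and highest intensities over the 8 arrays were 64858 and 81138 for the 5' set, 74472.5 and 97962 for the middle set and 73979 and 96200.3 for the 3' set. The genotype differences were -0.08 ± 0.09, -0.13 ± 0.09 and -0.14 ± 0.09 with limma adjusted p = 0.946, 0.928 and 0.928. Under quantile normalization they were 0.06, -0.0083 and -0.0037, so the 5' set turned sign and the middle and 3' sets shrank but stayed negative. The 3 matching sense probe sets, which face the other strand, lay between 458 and 954 over all arrays, near the noise level.

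Eno1 encodes enolase 1, which forms phosphoenolpyruvate. Its 2 probe sets varied least over the 8 arrays within the group, though M31788_g_at of Pgk1 was close, at 1.22-fold from lowest to highest. X02610_at lay between 50394 and 60914 and X02610_g_at between 52607.5 and 61885, so that the highest array exceeded the lowest 1.21-fold and 1.18-fold. The median of this ratio was 1.48 over the 1321 tested probe sets with a geometric mean above 5000. It was 3.84 for rc_AA892797_at, a ratio reached by 15 of the 1321, itself included. That probe set was chosen for its values, so its place among the 1321 is a description. The genotype differences of Eno1 were -0.03 ± 0.08 (95% interval -0.22 to 0.16) and 0.04 ± 0.08 (-0.14 to 0.22), with limma adjusted p = 0.996 and 0.985. The first turned sign under quantile normalization (0.07).

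Pkm encodes the muscle-type pyruvate kinase that makes pyruvate in most embryonic tissues. Its 1 probe set, rc_AA818951_at, read 50705.5 and 47455 on the wild-type and 57057 and 35501 on the Pax6 homozygous forebrain arrays, and 53247 and 42371 on the wild-type and 52281.5 and 47075 on the Pax6 homozygous hindbrain arrays. Both extremes thus fell within Pax6 homozygous forebrain. The genotype difference was -0.03 ± 0.15 (95% interval -0.38 to 0.31, limma adjusted p = 0.9996), and 0.06 under quantile normalization.

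**Figure D2:**
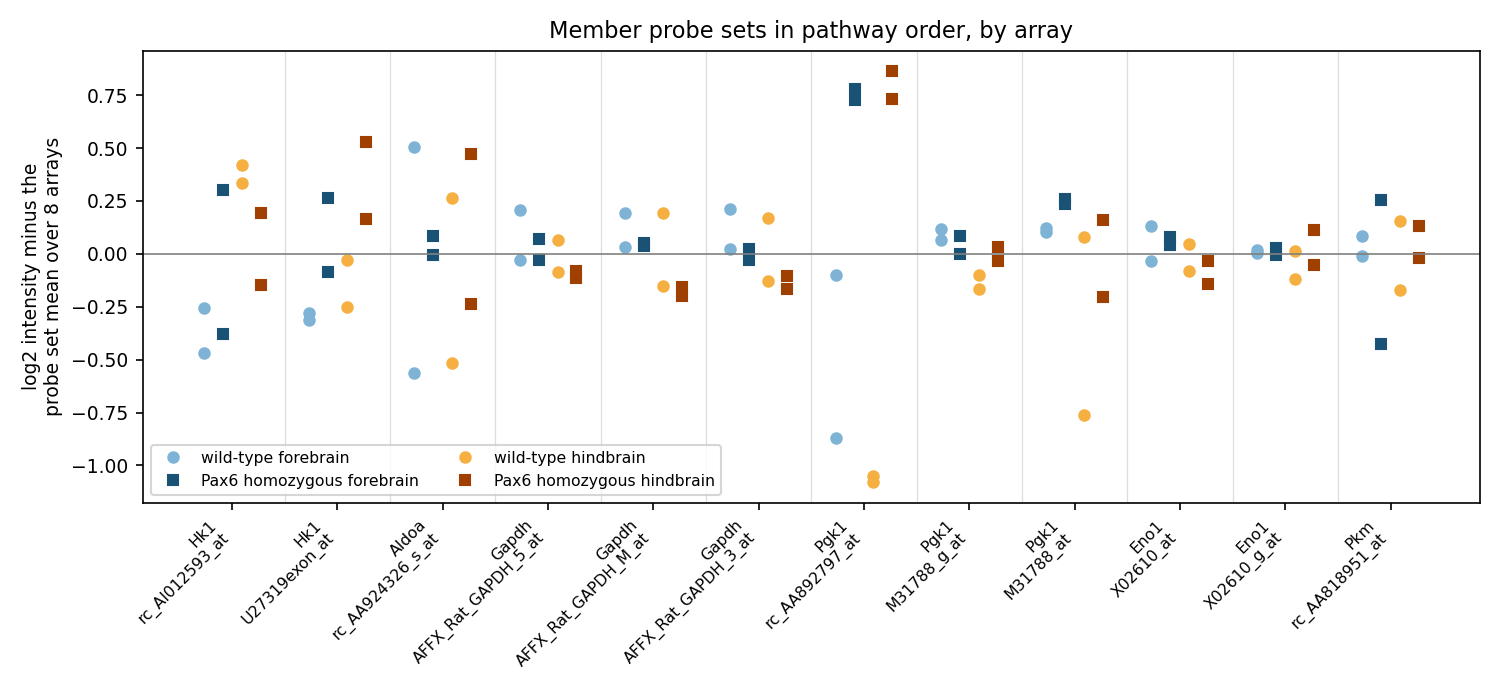
Log2 intensity minus the probe set's mean over the 8 arrays (vertical axis) for 12 probe sets of 6 genes in pathway order, a point for each array, coloured by group. The Pgk1 probe set rc_AA892797_at is the one in which all 4 Pax6 homozygous squares lie above all 4 wild-type circles.

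The enzymes did not pass between regions either. Of the 8 probe sets, 0 passed for forebrain against hindbrain, where 1.51% of all probe sets did (0.289% higher in forebrain and 1.22% lower), and 0 had an unadjusted p under 0.05, which 8.09% of all had. The log2 differences, forebrain minus hindbrain, ran from -0.40 to 0.36 with a median of 0.02. The lowest belonged to rc_AI012593_at of Hk1 (-0.40 ± 0.18, 95% interval -0.81 to 0.01, limma adjusted p = 0.631). In the test of whether genotype effects differed between regions, 0 of 8 passed, as did 0% of all probe sets, and 0 of 8 had an unadjusted p under 0.05, which 1.9% of all had.

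**Figure D3:**
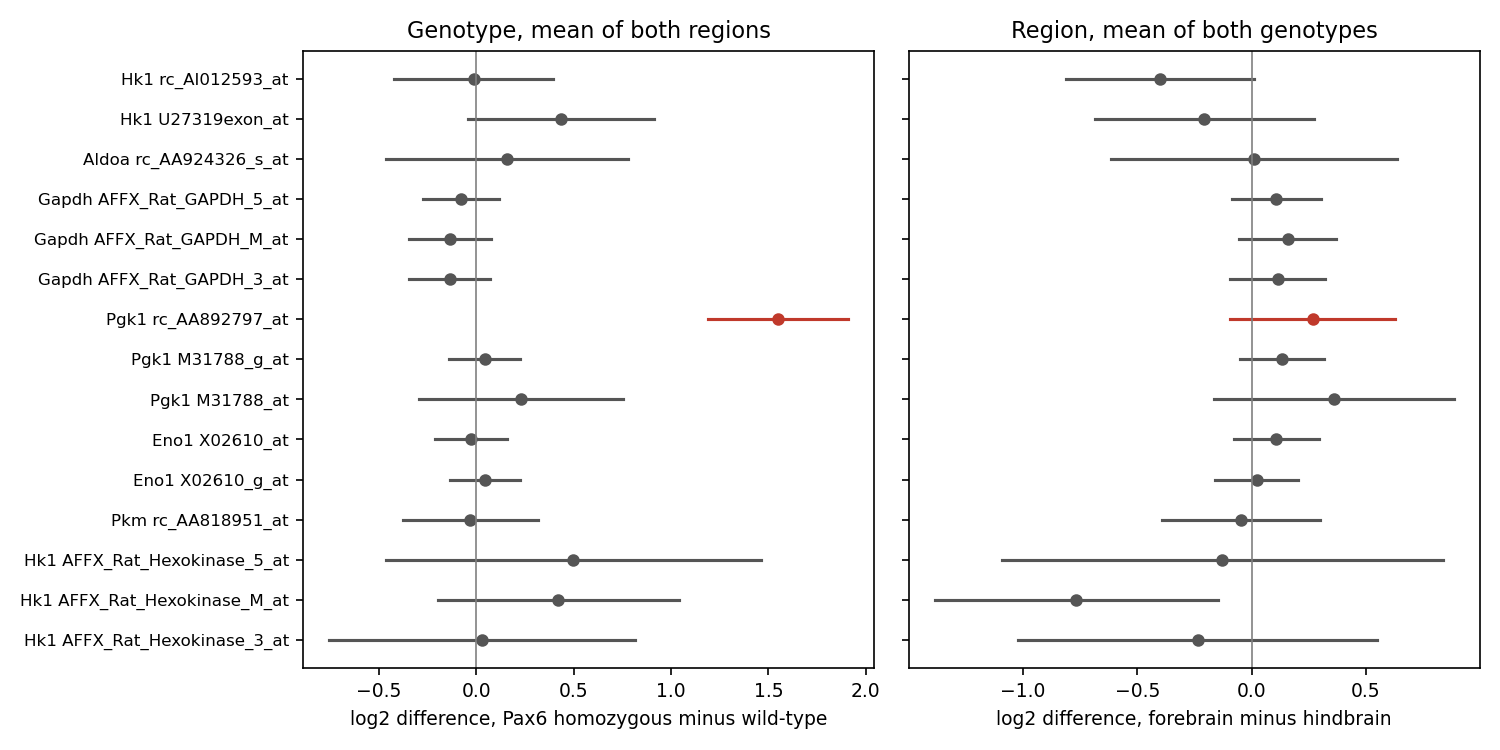
Log2 differences (points) with 95% intervals (lines) for 15 probe sets of the group, Pax6 homozygous minus wild-type as the mean of both regions on the left and forebrain minus hindbrain as the mean of both genotypes on the right. The Pgk1 probe set rc_AA892797_at (red, a description on the left since it chose the group) stands at 1.55, and each of the other intervals on the left includes 0.

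Genes around the core pathway gave the same count. Of 57 genes tested in 7 lists, read by 95 probe sets, 0 passed in either direction over both regions, in forebrain, in hindbrain, in the test of whether genotype effects differed between regions, or for forebrain against hindbrain. Over all probe sets the shares that passed were 0.034%, 0.017%, 0.017%, 0% and 1.51%, so 0 of 57 is near the background, most of all for genotype. In the counts and medians that follow the brightest probe set stands for a gene. Probe sets given by name were those with the smallest p in their list and can be others of the same gene.

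Of 11 further glycolytic genes tested, 5 had a positive and 6 a negative genotype difference, with a median of -0.01, and 1 had an unadjusted p under 0.05 (over all probe sets 54.3% were positive and 5.02% had such a p). Ldhb, the heart-type lactate dehydrogenase, was that gene (U07181_g_at, log2 difference -0.37 ± 0.14, limma adjusted p = 0.928). Pfkp, a phosphofructokinase, had 0.67 ± 0.39 at its dim probe set L25387_at, or 0.34 with the floor at the pooled median. Between regions its brighter probe set L25387_g_at lay between 1095 and 1788 on forebrain and between 1799 and 2252 on hindbrain arrays (-0.63 ± 0.19, limma adjusted p = 0.256). Aldoc, the brain aldolase, had -0.47 ± 0.18 between regions (limma adjusted p = 0.487).

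Of 8 genes of glucose and lactate transport, 4 were positive and 4 negative for genotype (median 0.08). The lactate carriers Slc16a3 and Slc16a1 had 0.40 ± 0.24 and 0.27 ± 0.20. Bsg, the chaperone of these carriers, had 0.16 ± 0.09 between regions.

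Among 16 genes of pyruvate entry and the citrate cycle, 7 were positive and 9 negative for genotype (median -0.01), and 3 had an unadjusted p under 0.05, which 5.02% of all probe sets had. Not all 3 genes are named, since only the probe sets with the smallest p are. Mdh2, mitochondrial malate dehydrogenase, had -0.33 ± 0.13 at rc_AI010480_at and -0.31 ± 0.12 at its brighter probe set rc_AI010480_g_at. Sdha, a subunit of succinate dehydrogenase, had 0.41 ± 0.16 (limma adjusted p = 0.928 for each of these Mdh2 and Sdha probe sets). Between regions, Pdha1 of the pyruvate dehydrogenase complex had 0.37 ± 0.14 and Pdk1, a kinase that inhibits that complex, 0.45 ± 0.19 (limma adjusted p = 0.490 and 0.578).

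The other lists were smaller. Of 6 genes of gluconeogenesis and glycogen, 3 were positive and 3 negative, and Pgm1, phosphoglucomutase, had 0.38 ± 0.26 and 0.27 ± 0.19 at 2 probe sets and, between regions, -0.49 ± 0.33 at a further one, U20195_s_at. Pygb, the brain glycogen phosphorylase, had -2.07 ± 0.74 between regions at M27726_at, which was above noise on 2 arrays and gave 0 with the floor at the pooled median. Its brighter probe set rc_AA800190_g_at had -0.04 ± 0.12. In the pentose phosphate pathway Taldo1, transaldolase, had -0.34 ± 0.14 and Tkt, transketolase, 0.12 ± 0.12 at rc_AI059508_s_at, and between regions they had 0.27 ± 0.14 and, at U09256_at, 0.19 ± 0.11. Of 5 genes of redox shuttles and serine synthesis, 3 were positive and 2 negative. Psat1 of serine synthesis had -0.35 ± 0.12 for genotype and 0.43 ± 0.12 between regions at rc_AI102868_g_at (limma adjusted p = 0.928 and 0.194). Both averages rest on Pax6 homozygous hindbrain, where this probe set read 5242.5 and 4629, against 7532 to 8851 on all other arrays. The brightest Psat1 probe set, rc_AI230228_at, had 0.19 ± 0.12 and 0.14 ± 0.12, so the probe sets of Psat1 disagreed in sign for genotype. Phgdh, the first enzyme of that synthesis, had 0.35 ± 0.13 between regions at X97772_g_at and 0.17 ± 0.14 at its brighter X97772_at. Gpd2, a glycerol phosphate dehydrogenase of the mitochondrion, had 1.01 ± 0.41 at a dim probe set that read 168 to 994, or 0.50 once values under the pooled median were raised to it.

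The hypoxia response outside glycolysis was read by 9 genes, of which 6 were positive and 3 negative for genotype, with a median of 0.20 against 0.03 over all probe sets. Egln3, a prolyl hydroxylase that marks hypoxia-inducible factors for breakdown, had the smallest p and the lowest difference (U06713_at, -0.74 ± 0.28, limma adjusted p = 0.928). Its dimmer probe set rc_AA799678_s_at had the opposite sign (0.52 ± 0.53). Vhl, part of the ligase that removes those factors, had 1.77 ± 0.79 at a dim probe set (S80345_s_at) that read 63 (62.8) to 851. This became 0.37 when the floor was at the pooled median and 0.92 to 2.62 when 1 array was left out. The far brighter Vhl probe set U14746_at, which read 4535.6 to 6646.4, had the opposite sign (-0.18 ± 0.16). Vegfa, a vessel growth factor induced by hypoxia, had -0.60 ± 0.25 between regions at rc_AA850734_at and 1.37 ± 0.94 at M32167_at. The latter became -0.09 with the floor at the pooled median. Its dim probe sets L20913_s_at and M32167_g_at had -1.01 ± 0.86 and -0.24 ± 0.45. For genotype, rc_AA850734_at had 0.43 ± 0.25, L20913_s_at 1.89 ± 0.86, M32167_g_at 0.62 ± 0.45 and M32167_at -0.01 ± 0.94, and none passed.

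**Figure D4:**
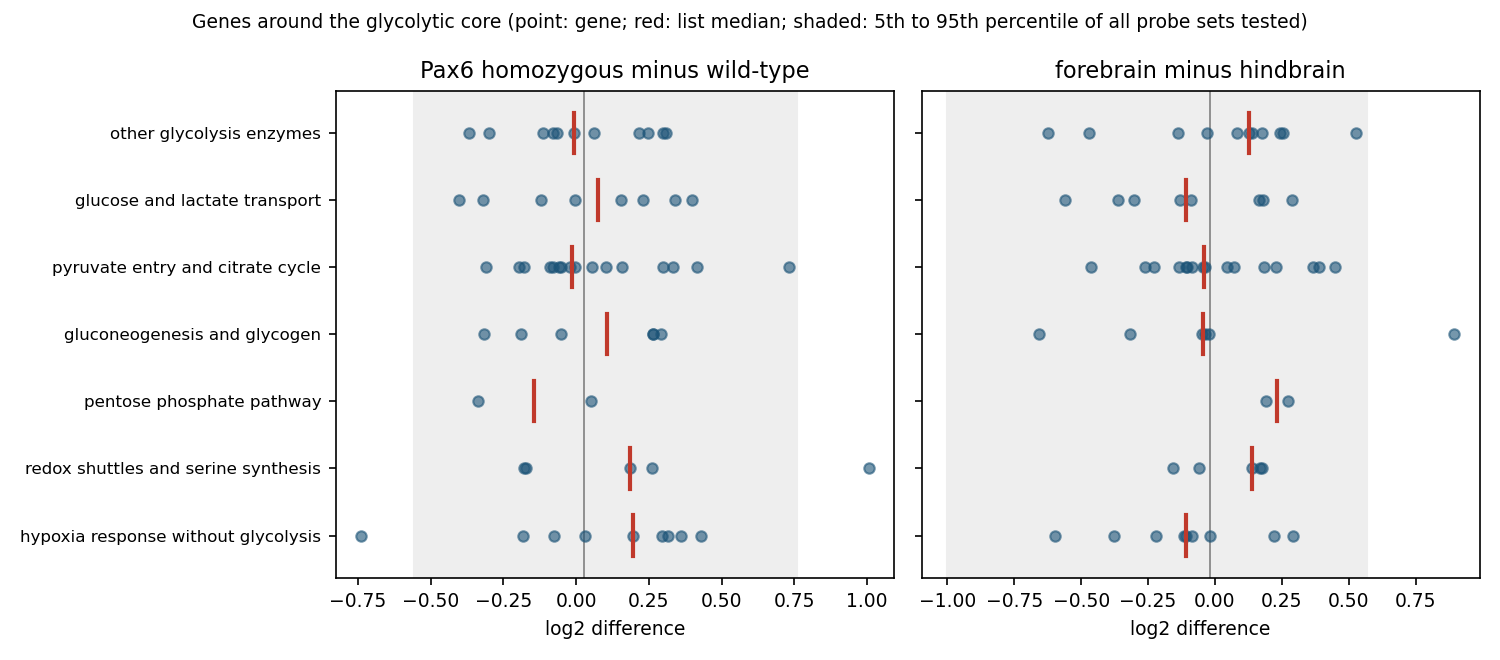
Log2 differences of the tested genes in 7 lists around the glycolytic core (points), with each list's median (red), the median of all probe sets tested (grey line) and, shaded, their 5th to 95th percentile, for genotype on the left and region on the right. List medians for genotype lie between -0.14 and 0.20, and 0 of the 57 genes passed the test in either panel.

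The probe sets whose pattern was most like that of rc_AA892797_at were of genes outside the glycolytic lists. Glycolytic probe sets were few among those compared, with 18 in the list of further glycolytic genes besides those of the group. Their absence from the 6 highest therefore says little about the pathway. The ranking starts from the values that chose the group and is a description. Over the 8 arrays and 4843 probe sets with 1 symbol, the highest Pearson r of log2 values were 0.97 for Hoga1, 0.96 for Kdm3a, 0.96 for Lrpap1, 0.95 for Ccdc88c, 0.95 for Ide and 0.94 for Nup107. Hoga1 was above noise on 1 array. Kdm3a, a histone demethylase gene, read 3654 and 3334 on the wild-type and 4555 and 4734.5 on the Pax6 homozygous forebrain arrays, and 3182 and 3016 on the wild-type and 4168 and 4641 on the Pax6 homozygous hindbrain arrays. The genotypes did not overlap there, as in 2.38% of all probe sets tested (3.57% in either direction). The log2 difference was 0.46 ± 0.13 (limma adjusted p = 0.801), which did not pass. Kdm3a was picked for its likeness to a probe set that splits by genotype, so such a split was largely built in. The lowest r were -0.95 for Gria4, above noise on no array, -0.93 for Fabp7 and -0.91 for Supt5h. Within the group, U27319exon_at of Hk1 ranked at 239 of 4843, X02610_g_at of Eno1 at 952, Aldoa at 1171, Pkm at 2776, and rc_AI012593_at of Hk1 and X02610_at of Eno1 at 3524 and 3596.

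Summed marker intensities of other cells differed between genotypes in the same arrays, without a test of the sums. Of the genes in the lists named here, 1 passed limma's test for genotype over both regions, Fabp7 of the neural progenitor list. The sum of 10 red blood cell genes, 8 of them above noise on all arrays and Gata1 on none, was 161151 to 197026 in wild-type and 144319 to 157174 in Pax6 homozygous arrays. That of 9 neural progenitor genes, all above noise on all arrays, was 106349.6 to 138543 and 80582 to 102869. Of all probe sets tested, 3.57% had 4 and 4 arrays that did not overlap. Fabp7 weighed in the progenitor sum, at 15111 to 16568 on the wild-type and 1190 to 1205 on the Pax6 homozygous hindbrain arrays. All 9 progenitor genes had negative log2 differences over both regions, with a median of -0.14. Over all 4 against 4 arrays the sums of the other lists overlapped. Within single regions, where 22.8% of all probe sets in forebrain and 34.4% in hindbrain were apart, they went both ways. In forebrain the forebrain and midbrain list (6 genes, Otx1 above noise on no array by its brightest probe set) was higher in Pax6 homozygous tissue, at 27270.2 to 28758.5 against 23660.2 to 26332. There 11 neuron genes (Syt1 above noise on no array) were lower, at 39519 to 42005 against 43386 to 44133, as were 12 lens genes (Cryba4, Crygc and Crybb1 above noise on no array), at 3866 to 5204 against 10777 to 11321, and 3 hindbrain and caudal genes, at 58.4 to 169 against 198 to 218, all below the noise of a single probe set. In hindbrain the neuron genes, at 71395 to 76137 against 90259.7 to 102118, and 11 genes of mesenchyme, cartilage and vessel, at 72575 to 83958.5 against 84954.5 to 88753, were lower. Muscle and macrophage sums overlapped within each region. The part of these lists in the values of rc_AA892797_at was not tested, and in bulk tissue fewer cells of a type and less RNA per cell cannot be told apart.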

How the data were processed

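RNA was labelled as biotin cRNA and hybridised to rat U34A arrays, per the labels' protocols. The authors deposited a linear intensity for each probe set on each array, with 18.3% to 22.3% of values below 0 and no detection calls. No source used here names the software or its scaling. After trimming, every array had the same mean (2499.998 to 2500.002), so the deposited scaling was kept.

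Intensities below the pooled 25th percentile (45.9) were raised to that floor before log2. Without the 59 controls, 5881 probe sets exceeded the pooled 40th percentile (255) on 2 or more arrays and were tested. 1 model with 4 group means was fitted in limma 3.58.1 (R 4.3.3) with an intensity trend, and p-values were adjusted by the Benjamini-Hochberg method over all probe sets tested (threshold 0.05). Control probe sets of Gapdh and Hk1 were tested in the same model with rat controls kept. The pipeline was tested on simulated data.

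The members and lists were chosen with earlier results of these data known. Named genes are the members, the 2 probe sets of each list with the smallest p for genotype and for region, and the 6 highest and 3 lowest correlations with rc_AA892797_at.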

Additional observations from a re-analysis of the deposited data

Results flagged for a closer look

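Slc2a4, a glucose carrier of muscle and fat, had genotype differences of opposite sign in the regions (rc_AA799760_s_at). It read 1131 and 921 on the wild-type and 640 (639.6) and 503 on the Pax6 homozygous forebrain arrays, and 720 (720.2) and 980 (979.6) on the wild-type and 1445 and 1559 on the Pax6 homozygous hindbrain arrays. Every Pax6 homozygous array lay below both wild-type arrays in forebrain and above both in hindbrain, which is what brought it up among the 44 probe sets looked at. The log2 difference was -0.85 ± 0.34 in forebrain and 0.84 ± 0.34 in hindbrain. The difference itself was -1.68 ± 0.48 (limma adjusted p = 0.9995), which did not pass. Since the probe set was picked for this very pattern, the value is a description. The share of all probe sets with such a pattern was not counted. Averaged over genotypes, forebrain minus hindbrain was -0.56 ± 0.24. The other Slc2a4 probe set, D28561_s_at, was dim (-690.4 to 555.1) and had a genotype difference over both regions of -0.28 ± 0.70.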

How the results depend on the processing

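In 5 comparisons, the count of other probe sets of the group past the threshold was 0 in all 87 recomputations. With the replicate block (the array number 1 or 2 as a term) it was 0 too, with 1 of 8 at an unadjusted p under 0.05 for genotype over both regions and 1 of 8 between regions, while the count over all probe sets went from 89 to 139 between regions and from 1 to 2 in hindbrain. Deviations of arrays with the same number had r from 0.275 to 0.465, but the labels do not say what the number marks. Over all probe sets, leaving out 1 array gave 1 to 5 calls for genotype over both regions, 0 to 5 in forebrain, 1 to 3 in hindbrain, 0 to 1 for the difference between regions and 37 to 82 between regions, where a group left with 1 array is assumed to vary like the others. With no filter these counts were 19, 0, 22 and 13 for genotype and its difference, and a floor raised to the pooled median gave 10, 3, 15 and 8. Without an intensity trend the counts in forebrain, in hindbrain and for the difference were 0, 5 and 4. With the 4 arrays of the region alone they were 0 in forebrain and 2 in hindbrain, and the floor at the 10th percentile of positive values gave 2 in hindbrain.

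For the probe sets of the group, 710 recomputed differences of 42 were sorted by sign and, where tested, by side of the threshold. 669 stayed the same and 39 turned sign. A further 2, both of rc_AA892797_at for genotype in forebrain, kept their sign but moved in size. The genotype differences of that probe set had no test and could not pass, and 0 of the others passed. Under quantile normalization the genotype difference became 0.065 for X02610_at, 0.057 for rc_AA818951_at, 0.059 for the Gapdh 5' set, -0.021 for the Hk1 3' set and 0.0081 for M31788_g_at in forebrain. The region difference became -0.075 for X02610_g_at, -0.014 for the Gapdh 5' set and 0.049 for the Hk1 5' set. A common median gave 0.025 for rc_AA818951_at between regions. The Vegfa probe set M32167_at became -0.088 with the floor at the pooled median. Signs also turned when 1 array was left out. For genotype the range was -0.070 to 0.011 for X02610_at, -0.20 to 0.14 for rc_AA818951_at, -0.11 to 0.42 for Aldoa, -0.18 to 0.16 for rc_AI012593_at (-0.015 to 0.66 in forebrain), -0.23 to 0.29 for the Hk1 3' set and -0.10 to 0.74 for M31788_at in hindbrain. For region it was -0.019 to 0.065 for X02610_g_at, -0.22 to 0.12 for rc_AA818951_at, -0.26 to 0.28 for Aldoa, -0.49 to 0.023 for the Hk1 3' set and -0.36 to 0.10 for the Hk1 5' set. The cause was not tested. Of 28 differences of genes in the lists, 14 moved by over 1.5 times when 1 array was left out and 6 under other settings (L25387_at, X54640_at, M27726_at, U83879_at, S80345_s_at and M32167_at). The largest unadjusted count of the group was 2 of 8, in forebrain without Pax6 homozygous forebrain replicate 1.

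With 2 arrays a group, intervals for Aldoa and the dim Hk1 sets leave room for changes of either sign. With the mean of a gene's probe sets, the list median of gluconeogenesis and glycogen between regions went from -0.04 to -0.47. For the difference of genotype effects between regions, the median of that list went from 0.16 to 0.0002. The median of the hypoxia list for genotype in forebrain went from 0.27 to 0.47.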

Other observations

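Probe sets of 1 gene seldom differed as much as those of Pgk1. Among 393 genes with more than 1 tested probe set of a geometric mean above 2000, the gap between the highest and the lowest genotype difference over both regions had a median of 0.14 on the log2 scale. Pgk1, chosen for its values, had 1.51 and ranked at 1, followed by Hnrnpa2b1, Marcks, Rbm39, Atp5if1 and Ngfr. Without the limit on brightness, 973 genes had a median gap of 0.26, and 35 had a gap above that of Pgk1. This was computed after the values were seen and has no test.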
